A study of Mus musculus with 15 samples.

Results

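The genes described here are 35 germline and meiosis genes: components of the meiotic chromosome axis and of meiotic cohesin, recombination factors, proteins of the piRNA pathway and of germ granules, regulators of germ cell differentiation, and other proteins known mainly from spermatogenesis. They were taken from a list of names, drawn up with earlier results of these data known, and all 35 were found among the 21662 genes counted. In both experiments 31 of them averaged 10 or more counts per sample and were tested. Spo11, Asz1, Sohlh1 and Tex101 lay below that limit and are given as counts.

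RNA-seq was performed on 15 samples of mouse embryonic stem cells (ESC), which were of a mixed 129Sv and C57Bl/6 background, grew in serum with LIF, on feeder cells or gelatine, and expressed the biotin ligase BirA from a CAG promoter. The KO experiment held WT cells (3 samples), an Hmga1 KO clone with a Cas9-induced frameshift in exon 3 (2 samples), and KO cells in which a biotin-tagged cDNA of Hmga1 or of Hmga2 was driven by the CAG promoter from a defined locus (2 samples each). The full-deletion experiment held its own wild type, named WT_2 (3 samples), and a line that had lost the whole Hmga1 coding sequence to a pair of Cas9 cuts (3 samples). Each genotype is a single line, so a line and its genotype cannot be told apart, and both add-back lines derive from the same KO clone. Samples are named by the letters a, b and c, which in the KO experiment mark batches of library preparation and sequencing. WT c had no partner in another group. With the batch letter in the fit, WT c therefore adds nothing to a fitted difference or its spread, and WT a and b alone stand for WT. The study's methods state that RNA came from independent cultures harvested on different days, but not which sample came from which. Hmga1 and Hmga2 are AT-hook proteins that bind AT-rich DNA.

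Most of these genes act only in germ cells. There, SYCP and HORMAD proteins build the axis along which chromosomes pair, a meiotic cohesin holds sister chromatids, SPO11 and DMC1 make and repair the breaks of recombination, and PIWI proteins with small RNAs silence transposons. In somatic cells many of the promoters are methylated, and methylation, the E2F6 and MGA complexes and repressive histone methylation are known to silence the class. Mouse ESC in serum express a number of them at a moderate level.

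Samples had between 13465399 and 34952136 counts, scaled to the library size (CPM) with TMM factors over all 15 samples. WT_2 b stood apart, with a TMM factor of 0.67 (0.90 to 1.17 in the other samples) and 8.78% of its counts in its top 10 genes (4.67% to 5.50% in the other samples). The calls of the full-deletion experiment are therefore given with and without it. With it, 4.47% of all genes tested were higher and 3.77% lower at an adjusted p under 0.05 there, and without it 5592 of 13163 (42.5%), so a low adjusted p without it is common to many genes. Hmga1 was at 208 to 438 CPM in WT and at 203 and 89.99 in the Hmga1 KO. In WT_2 it was at 351 to 390 CPM and in the full deletion at 11.8 to 13.4. A pseudogene can share some of these reads. The study also reported a shorter Hmga1 transcript in its KO line, which lacks the targeted exon. No matching protein was detected there by Western blot. How much of the KO level came from either source was not tested. Hmga1 was at 171 and 115 CPM in the samples labelled Hmga1 add-back, below the KO in batch a and above it in batch b, so the counts did not show the added cDNA and these are called by their label throughout. By Western blot, the study reported Hmga1 protein in its Hmga1 add-back line at levels comparable to WT. Hmga2 was at 231 and 209 CPM in the Hmga2 add-back and at 12.1 to 25.3 CPM in all other samples. The 10 pluripotency markers summed to 4649 to 8565 CPM and were detected throughout. Single markers moved both ways between the wild types. Mean Dppa5a was 458 CPM in WT and 101.5 in WT_2, Nanog 190.6 and 79.53, and Klf4 106.6 and 168.8. Fibroblast markers summed to 4.02 to 15.4 CPM, with 1 to 7 of 10 at 0 counts in a sample and Dcn, Lum and Postn at 0 in most. In bulk RNA, fewer expressing cells and less RNA per cell cannot be told apart.

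Promoters are shown first because CpG content is the sequence feature by which methylation acts on this class. The RefSeq promoter table (build GRCm38.p6) held 31 of the 35 members, not Spo11, Piwil2, Tex15 and Tex11. Within 250 bases before to 50 after the first listed start, the members had a median of 20 CpG sites (5 to 38), against 15 for all 16003 counted genes with an entry (quartiles 4 and 25). CACGTG, the palindromic E-box that MGA and MAX are known to bind, was found in 14 of 31 members (45.2%) and in 8.28% of all these promoters. GCGGGA, an E2F-like motif searched on both strands, was found in 12 members (38.7%) and in 27.1% of all. TGACGTCA, the palindromic CRE, was found in 0 members and in 2.47% of all. The 250 bases before the start are printed for the 5 members past an adjusted p of 0.05 in the KO-derived lines and for Hormad1 and Ddx4, which fell in the full deletion, 5′ to 3′ on the gene's strand with each CpG in capitals.
Sohlh2 (chr3:55181794-55182043, plus strand): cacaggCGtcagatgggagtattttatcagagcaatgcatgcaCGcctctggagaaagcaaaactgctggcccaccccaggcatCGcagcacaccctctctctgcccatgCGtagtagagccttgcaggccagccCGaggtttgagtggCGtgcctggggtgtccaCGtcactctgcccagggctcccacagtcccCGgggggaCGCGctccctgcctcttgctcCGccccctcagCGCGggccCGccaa
Smc1b (chr15:85131958-85132207, minus strand): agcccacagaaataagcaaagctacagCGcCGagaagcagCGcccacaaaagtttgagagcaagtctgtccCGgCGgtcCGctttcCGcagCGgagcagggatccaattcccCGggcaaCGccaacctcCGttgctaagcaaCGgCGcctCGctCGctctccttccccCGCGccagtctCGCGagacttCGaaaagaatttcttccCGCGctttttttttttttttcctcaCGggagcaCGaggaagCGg
Usp26 (chrX:51801234-51801483, minus strand): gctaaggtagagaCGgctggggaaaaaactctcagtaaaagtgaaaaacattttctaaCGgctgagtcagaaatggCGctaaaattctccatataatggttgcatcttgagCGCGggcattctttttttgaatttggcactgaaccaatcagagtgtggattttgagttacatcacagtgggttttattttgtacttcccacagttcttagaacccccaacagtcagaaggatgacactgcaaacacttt
Ldhc (chr7:46861013-46861262, plus strand): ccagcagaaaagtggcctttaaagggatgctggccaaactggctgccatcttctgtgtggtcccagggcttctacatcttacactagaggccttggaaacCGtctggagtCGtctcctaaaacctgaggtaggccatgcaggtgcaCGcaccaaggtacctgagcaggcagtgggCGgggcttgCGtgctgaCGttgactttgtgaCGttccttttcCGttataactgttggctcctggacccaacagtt
Fmr1nb (chrX:68761589-68761838, plus strand): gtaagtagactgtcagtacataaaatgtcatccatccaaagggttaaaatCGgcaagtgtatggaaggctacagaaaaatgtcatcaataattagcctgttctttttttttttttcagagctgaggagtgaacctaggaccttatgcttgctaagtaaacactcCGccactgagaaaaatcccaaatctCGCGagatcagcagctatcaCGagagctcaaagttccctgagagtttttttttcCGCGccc
Hormad1 (chr3:95559427-95559676, plus strand): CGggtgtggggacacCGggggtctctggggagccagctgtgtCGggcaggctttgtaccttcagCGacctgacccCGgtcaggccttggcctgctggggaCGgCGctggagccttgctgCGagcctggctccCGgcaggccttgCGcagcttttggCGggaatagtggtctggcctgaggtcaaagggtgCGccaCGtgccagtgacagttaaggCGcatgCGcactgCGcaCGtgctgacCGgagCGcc
Ddx4 (chr13:112652311-112652560, minus strand): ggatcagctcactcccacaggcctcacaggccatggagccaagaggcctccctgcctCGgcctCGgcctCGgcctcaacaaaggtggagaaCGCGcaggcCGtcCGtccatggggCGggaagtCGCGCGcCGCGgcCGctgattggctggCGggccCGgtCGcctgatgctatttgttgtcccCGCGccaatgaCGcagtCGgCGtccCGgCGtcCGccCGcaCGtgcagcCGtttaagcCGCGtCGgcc
Usp26 held 5 CpG sites in these 250 bases, Fmr1nb 7, Ldhc 8, Sohlh2 14, Hormad1 19, Smc1b 25 and Ddx4 31. CACGTG was in 0 of the 300-base windows of these 5. Of the 6 members that fell in the full deletion it occurred 2 times in Hormad1, 1 time each in Ddx4 and Sycp1 and 0 times in Tex19.1 and Ldhc, while Tex11 had no entry, and of the 2 that rose there it occurred 1 time in Mael and 0 times in Rec8. These are counts of letters in a window and do not mark binding.

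Levels per length of exon, as RPKM, covered a wide range. The highest median over the 15 samples was that of Syce1 (30.02 RPKM), followed by Tex19.1 (25.1), Fmr1nb (23.3), Stag3 (18.9) and Hormad1 (14.5). Syce1 stood at the 89.2nd percentile of all genes by median RPKM and Hormad1 at the 80.4th. The ranges over samples overlapped among these 5: Syce1 lay between 14.2 and 73.2 RPKM, Fmr1nb between 7.76 and 72.6, Hormad1 between 5.46 and 46.5, Tex19.1 between 19.08 and 44.3, and Stag3 between 9.87 and 22.5. At the other end, Asz1 had 0 to 4 counts in a sample, Sohlh1 0 to 11 and Tex101 0 to 19. Spo11, which makes the breaks of meiotic recombination, had 8 counts in WT c, 1 in Hmga2 add-back a and 0 in the other 13 samples. Its partner in recombination, Dmc1, was at 5.42 to 10.6 CPM in all samples.

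**Figure D1:**
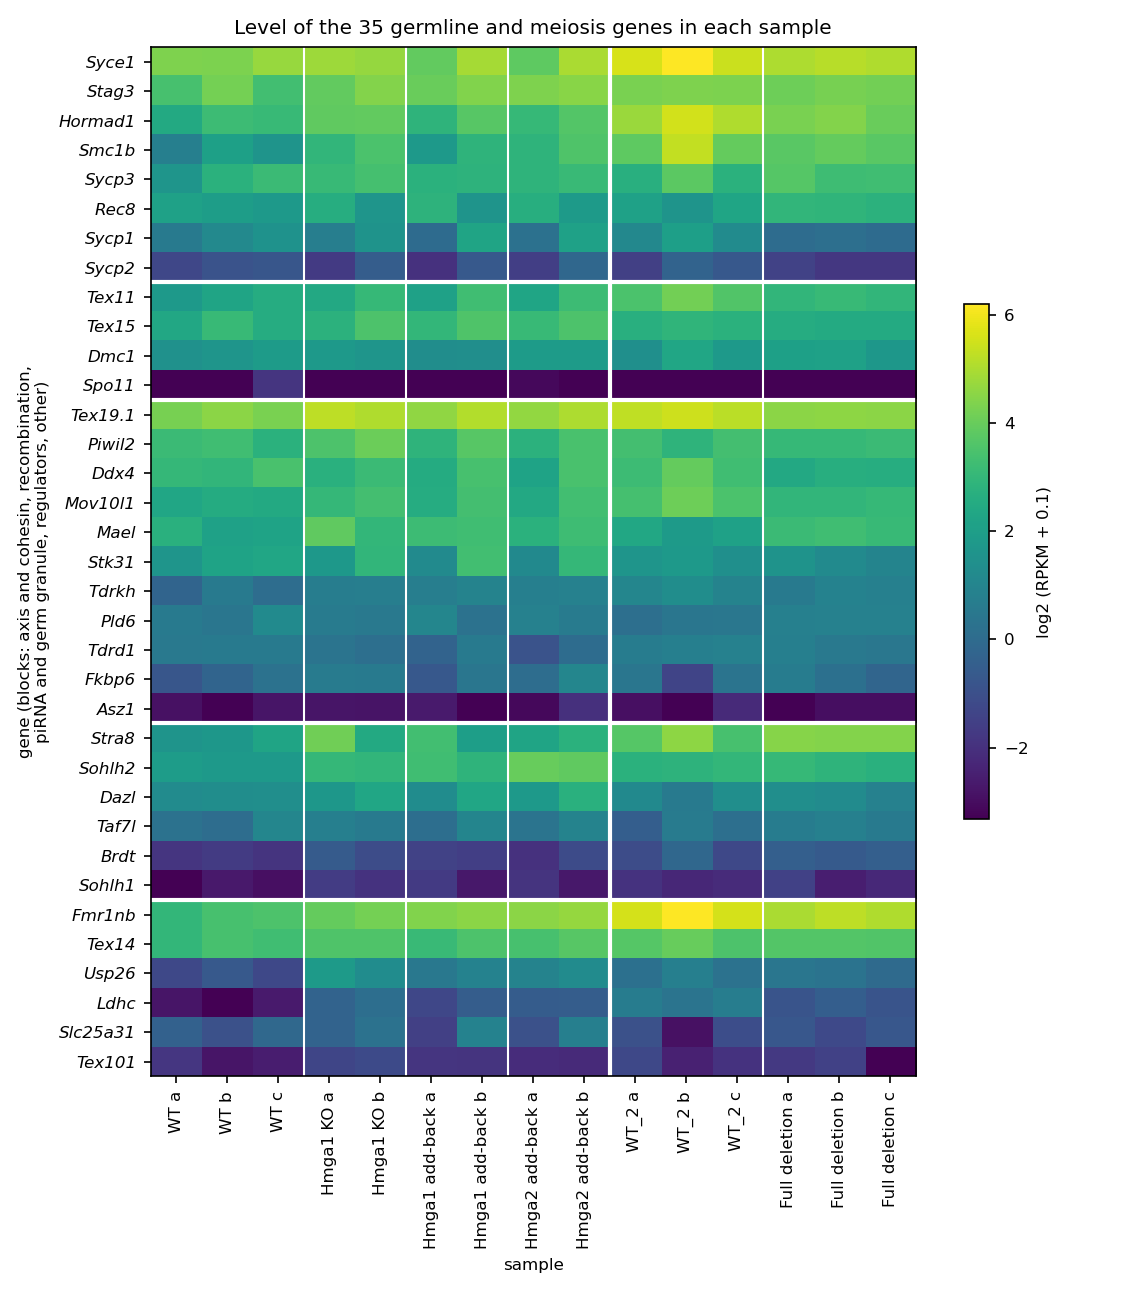
Level of each of the 35 genes (rows, grouped by role and ordered by median within a role) in each of the 15 samples (columns), as log2 of RPKM plus 0.1. Syce1, Tex19.1 and Stag3 are among the brightest in every sample, Spo11 and Asz1 are near the floor, and the WT_2 columns are brighter than the WT columns for Fmr1nb, Hormad1, Smc1b and Ldhc.

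In the KO-derived lines 28 of the 31 tested members had a positive log2 fold change against WT, and in the full deletion 19 of 31 had a negative log2 fold change against WT_2. Of all 13098 genes tested in the full deletion, 6104 were negative. With the KO and both add-back lines averaged against WT, 5 of 31 tested members were higher (Sohlh2, Smc1b, Usp26, Fmr1nb and Ldhc) and 0 lower at an adjusted p under 0.05 (quasi-likelihood test of edgeR, p-values adjusted by Benjamini-Hochberg across every tested gene). Of all 13912 genes tested, 0.424% were higher and 0.323% lower by that rule. Ldhc averaged 1.33 counts in WT and 20 in the derived lines and so was tested only through the lines where it was high. Its call is no support and it is described by its counts, which leaves 4 members that rose. Its place among the 28 positive members, and in the counts given below for single lines against WT, is likewise no support. At the stricter rule, an adjusted p under 0.01 and at least 2-fold, Sohlh2 was called, against 0.0647% of all genes. The median log2 fold change was 0.58 over the members and 0.00 over all genes, and 49.4% of all genes were positive. In the full deletion against WT_2, 6 of 31 members fell (Sycp1, Hormad1, Ddx4, Tex19.1, Tex11 and Ldhc) and 2 rose (Rec8 and Mael) at an adjusted p under 0.05, where 3.77% of all 13098 genes tested were lower and 4.47% higher. There, 0 members passed the stricter rule in edgeR (0.0687% of all genes did), and DESeq2 called 3 (3.53% of all genes) and limma-trend 0 (0.0687%). An unadjusted p under 0.05 was found for 14 members (45.2%) and for 37% of all genes. The median log2 fold change was -0.17 over the members and 0.04 over all genes, or -0.12 and 0.03 without WT_2 b.

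Line by line, the calls were fewer. In the Hmga1 KO, 2 of 31 members rose (Smc1b and Usp26) and 0 fell, against 0.0431% of all genes higher and 0.0216% lower. None passed the stricter rule in edgeR (0.0216% of all genes did), and 20 members had an unadjusted p under 0.05, all of them higher, against 12.6% of all genes. DESeq2 called 4 members by the stricter rule (0.546% of all genes) and limma-trend 0. Neither rule called a member in the samples labelled Hmga1 add-back (0 of 31 in edgeR), against 0.0144% of all genes by the stricter rule and 0.0144% higher and 0.0288% lower by the looser. Of the 31, 13 had an unadjusted p under 0.05 (13.3% of all genes did), and at an adjusted p under 0.05 DESeq2 called 5 (1.44% of all genes) and limma-trend 2 (0.108%). For the Hmga2 add-back, 3 members rose (Sohlh2, Smc1b and Fmr1nb) and 0 fell, against 0.108% of all genes higher and 0.0575% lower, and Sohlh2 passed the stricter rule, against 0.0647% of all. The 3 lines share the WT samples, so these counts are not independent. Counts with a sample left out follow. Where no share of all genes stands beside such a count, it shows only the dependence on that sample. In the average over lines, the 5 calls at an adjusted p under 0.05 became 0 without WT a or Hmga1 KO a, 1 or 2 without Hmga2 add-back b or a, 3 without Hmga1 KO b and 9 without WT b, where 11.2% of all genes passed. Without WT b the KO had 7, the Hmga2 add-back 9 and the samples labelled Hmga1 add-back 7, when 5.25%, 9.36% and 5.75% of all genes passed. In the Hmga2 add-back 2 were called without Hmga1 KO a and 1 without WT a, and in the KO and the samples labelled Hmga1 add-back 0 were called in either case.

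Markers of 2-cell-like cells, a rare state of ESC cultures, also differed between the groups. All 5 tested of the 7 genes on that list had a positive log2 fold change in the KO-derived lines, and Zscan4c (3.26 ± 0.54, SE, adjusted p = 0.0472) and Zscan4f (3.36 ± 0.55, adjusted p = 0.0470, edgeR) rose. Both belong to the Zscan4 gene family and reads with several hits were placed at random, so these calls may not be independent. The 6 genes of the list that were counted summed to 1.84 to 5.20 CPM in WT, 25.8 and 67.7 in the Hmga1 KO, 30.8 and 36.0 in the samples labelled Hmga1 add-back, 11.7 and 18.2 with Hmga2 added back, 14.0 to 15.8 in WT_2 and 6.87 to 9.02 in the full deletion, where Zscan4f fell by 0.95 on the log2 scale (adjusted p = 0.0279), or by 0.92 without WT_2 b (0.000796). At most 1 of the 6 was at 0 counts in a sample, and it was Zfp352. Primitive endoderm markers moved the other way, with all 7 negative in the KO-derived lines and sums of 38.2 to 111 CPM in WT, 9.77 to 65.4 in the KO-derived lines, 12.1 to 12.7 in WT_2 and 15.1 to 15.6 in the full deletion. None of the 7 passed an adjusted p of 0.05 in edgeR, and 5 had an unadjusted p under 0.05. The part of either cell state in the members' changes was not tested.

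Of the 8 axis and cohesin genes, Smc1b rose in the KO-derived lines, Sycp1 and Hormad1 fell in the full deletion, and Rec8 rose there. Smc1b (Entrez 140557, chr15:84895121-84962387, minus strand, mm9) encodes the SMC subunit of meiotic cohesin. It was at 6.504, 16.6 and 12.0 CPM in WT a, b and c, 30.7 and 45.5 in the Hmga1 KO, 14.1 and 28.9 in the samples labelled Hmga1 add-back, and 29.3 and 48.2 in the Hmga2 add-back. In each batch the 3 derived lines lay above WT, by 1.75 to 4.72 times, while add-back a overlapped the WT range. The log2 fold change was 1.86 ± 0.20 (SE) in the KO (adjusted p = 0.0224), 0.96 ± 0.20 in the samples labelled Hmga1 add-back (0.125), 1.86 ± 0.20 in the Hmga2 add-back (0.0122) and 1.56 ± 0.17 over the lines (0.0157, edgeR). In WT_2 it was at 56.9, 163 and 61.9 CPM, with sample b far above the others, and in the full deletion at 54.8 to 61.1. The log2 fold change there was -0.68 ± 0.37 (adjusted p = 0.212), and without WT_2 b -0.05 ± 0.07 (0.608).

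Sycp1 (Entrez 20957, chr3:102622422-102740023, minus strand, mm9), the transverse filament protein of the synaptonemal complex, was at 7.17, 13.9 and 7.95 CPM in WT_2 a, b and c and at 3.24, 3.47 and 3.12 in the full deletion. The groups did not overlap, and the log2 fold change was -1.52 ± 0.27 (adjusted p = 0.0293, edgeR). Without WT_2 b it was -1.19 (adjusted p = 1.86e-05). In the KO experiment both add-backs straddled WT: Sycp1 was at 3.15 and 3.65 CPM in batch a, below WT a (4.89), and at 16.0 and 14.7 in batch b, above WT b (7.25).

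Hormad1 (Entrez 67981, chr3:95363599-95391593, plus strand, mm9), which marks unsynapsed axes, was at 41.1, 70.6 and 50.03 CPM in WT_2 and 29.7, 32.5 and 24.4 in the full deletion, with no overlap. It fell by 0.87 on the log2 scale (SE 0.20, adjusted p = 0.0445, edgeR), and by 0.65 without WT_2 b (adjusted p = 6.33e-05). In WT it was at 8.29, 13.9 and 12.7 CPM and in the Hmga1 KO at 22.0 and 22.4, a log2 fold change of 1.09 ± 0.21 that did not pass the test (adjusted p = 0.115). Both add-backs, at 10.9 and 19.8 and at 12.5 and 18.9 CPM, overlapped WT.

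Rec8 (Entrez 56739, chr14:56236874-56244232, plus strand, mm9), the kleisin subunit of meiotic cohesin, moved the opposite way in the full deletion. It was at 8.62, 5.95 and 9.65 CPM in WT_2 and 15.6, 14.97 and 13.9 in the full deletion, without overlap, a log2 fold change of 0.89 ± 0.19 (adjusted p = 0.0400, edgeR) or 0.71 without WT_2 b (adjusted p = 1.15e-04). In the KO experiment Rec8 was above WT in batch a (12.2 to 14.5 against 8.71 CPM) and below it in batch b (5.998 to 7.29 against 7.91).

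Syce1 (Entrez 74075, chr7:147963128-147973753, minus strand, mm9), a central element protein, was at 72.4, 107 and 62.8 CPM in WT_2 and 47.0, 52.1 and 48.7 in the full deletion. The groups did not overlap, but the log2 fold change of -0.68 ± 0.18 missed the threshold (adjusted p = 0.0579, edgeR). Without WT_2 b it was -0.45 ± 0.07 (adjusted p = 9.73e-05), and DESeq2 with all samples gave an adjusted p of 0.0127. In the KO experiment Syce1 was at 29.2 to 39.0 CPM in WT and at 20.7 to 45.8 in the derived lines. Stag3 (Entrez 50878, chr5:138721468-138753621, plus strand, mm9), the meiotic cohesin subunit, was at 46.9 to 86.3 CPM in WT, 70.7 to 107 in the derived lines, 91.9 to 96.1 in WT_2 and 80.6 to 89.8 in the full deletion. It was above WT in every derived sample of the same batch, by 1.16 to 1.94 times, and its log2 fold change over the lines was 0.49 ± 0.13 (adjusted p = 0.121 in edgeR and 0.0371 in DESeq2). Of the axis proteins Sycp2 and Sycp3, Sycp2 was at 0.88 to 4.58 CPM over all samples and Sycp3 at 3.76 to 17.4, and edgeR called neither in any comparison with all samples. DESeq2 called Sycp3 in the KO and over the lines (adjusted p = 0.0410 and 0.0365) and Sycp2 in the full deletion (0.0336).

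Among the recombination genes, Tex11 fell in the full deletion. Tex11 (Entrez 83558, chrX:98033987-98255006, minus strand, mm9), an X-linked gene for a protein of recombination foci, was at 40.3, 64.7 and 44.0 CPM in WT_2 and 27.5, 30.2 and 27.6 in the full deletion. All 3 deletion samples were below all WT_2 samples, and the gene fell by 0.78 on the log2 scale (SE 0.17, adjusted p = 0.0424, edgeR) or by 0.56 without WT_2 b (adjusted p = 1.98e-05). In WT it was at 12.3 to 21.1 CPM and in the derived lines at 15.3 to 34.7, and the log2 fold change over the lines was 0.71 ± 0.16 (adjusted p = 0.0829 in edgeR and 0.00993 in DESeq2). Tex15, needed for repair of meiotic breaks, had a log2 fold change of 0.54 ± 0.10 over the lines (adjusted p = 0.0534 in edgeR, 0.00180 in DESeq2 and 0.0481 in limma-trend) and -0.25 ± 0.09 in the full deletion (0.0979), or -0.21 ± 0.07 without WT_2 b (0.0162). For Dmc1 the values were 0.14 ± 0.16 and 0.15 ± 0.24.

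Of the 11 piRNA and germ granule genes, Tex19.1 and Ddx4 fell and Mael rose in the full deletion, and edgeR called 0 of them in the KO-derived lines. DESeq2 called 2 of these there, Tex19.1 and Mov10l1, and limma-trend 0. Tex19.1 (Entrez 73679, chr11:121007457-121009633, plus strand, mm9), known for restraint of retrotransposons in germ cells and ESC, was at 67.4, 77.0 and 64.4 CPM in WT_2 and 40.4, 41.7 and 40.2 in the full deletion. The groups did not overlap, and the log2 fold change was -0.75 ± 0.10 (adjusted p = 0.0188, edgeR), or -0.68 without WT_2 b (adjusted p = 2.85e-07). In WT it was at 33.2, 40.4 and 33.4 CPM, in the Hmga1 KO at 66.7 and 57.6, in the samples labelled Hmga1 add-back at 42.0 and 60.1, and in the Hmga2 add-back at 43.6 and 57.2. Every derived sample lay above every WT sample, but the log2 fold change of 0.58 ± 0.145 over the lines did not pass (adjusted p = 0.108 in edgeR and 0.0212 in DESeq2). Tex19.1 has a close copy, Tex19.2, and reads that fit both were placed at random, so its count is uncertain to that extent.

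Ddx4 (Entrez 13206, chr13:113388541-113442518, minus strand, mm9), the Vasa helicase of germ granules, was at 25.7, 43.8 and 27.4 CPM in WT_2 and 14.9, 17.5 and 17.3 in the full deletion. It fell by 0.93 on the log2 scale (SE 0.20, adjusted p = 0.0413, edgeR), with no overlap, and by 0.66 without WT_2 b (adjusted p = 2.62e-05). In the KO experiment it was at 21.5 to 31.3 CPM in WT and 12.8 to 30.8 in the derived lines, with every derived sample lower in batch a than in batch b. Mael (Entrez 98558, chr1:168131516-168168875, minus strand, mm9), which acts in piRNA-guided silencing, was at 7.94, 5.54 and 6.62 CPM in WT_2 and 13.5, 14.7 and 13.0 in the full deletion. The log2 fold change was 1.05 ± 0.17 (adjusted p = 0.0248) or 0.93 without WT_2 b (adjusted p = 1.66e-05, edgeR). Mael was at 6.66 to 9.90 CPM in WT and 10.2 to 22.3 in the derived lines, every one above WT, and the log2 fold change of 0.81 ± 0.26 did not pass (adjusted p = 0.164).

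The other piRNA genes gave no call in edgeR with all samples. Mov10l1, the helicase of piRNA precursor processing, had a log2 fold change of 0.59 ± 0.16 over the lines and -0.69 ± 0.17 in the full deletion (adjusted p = 0.117 and 0.0517, edgeR). DESeq2 gave it adjusted p-values of 0.0375 and 0.00852, and without WT_2 b the latter change was -0.47 ± 0.08 (7.49e-05). Piwil2, a PIWI protein, was at 33.1 to 80.3 CPM over all samples, with log2 fold changes of 0.20 ± 0.14 and -0.09 ± 0.15, the latter -0.24 ± 0.07 without WT_2 b (adjusted p = 0.00933). The tudor protein Tdrd1 had the lowest log2 fold change of the tested members over the lines, -0.60 ± 0.27 (adjusted p = 0.261). Tdrkh, Pld6, Fkbp6 and Stk31 were at 2.98 to 9.90, 1.82 to 3.995, 0.48 to 3.32 and 6.05 to 31.5 CPM. Asz1 had 4 counts in WT, 5 in WT_2 and 2 in the full deletion, too few for a comparison.

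Among the regulators, Sohlh2 rose, with the smallest adjusted p of any member in the edgeR fits with all samples. Sohlh2 (Entrez 74434, chr3:54985950-55013879, plus strand, mm9), a helix-loop-helix transcription factor of early germ cell differentiation, was at 8.68, 8.20 and 8.15 CPM in WT, 18.8 and 17.9 in the Hmga1 KO, 22.7 and 17.0 in the samples labelled Hmga1 add-back, and 37.2 and 34.4 in the Hmga2 add-back. Every derived sample exceeded every WT sample, by 2.07 to 4.28 times within a batch. The log2 fold change was 1.14 ± 0.16 in the KO (adjusted p = 0.0534), 1.25 ± 0.16 in the samples labelled Hmga1 add-back (0.0504), 2.10 ± 0.16 in the Hmga2 add-back (0.00235) and 1.495 ± 0.14 over the lines (0.00520, edgeR). WT_2 and the full deletion, at 15.5 to 18.1 and 15.4 to 19.2 CPM, overlapped (0.05 ± 0.13, adjusted p = 0.769). In the Hmga2 add-back the call at an adjusted p of 0.05 held under all 17 alternatives, and over the lines it was lost without WT a (adjusted p = 0.114) and without Hmga1 KO a (0.0597).

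Stra8, the retinoic acid-induced gatekeeper of meiosis, varied within groups: it was at 31.04 and 9.54 CPM in the Hmga1 KO, 5.25 to 8.23 in WT, 19.08 to 41.8 in WT_2 and 37.8 to 38.8 in the full deletion. Its log2 fold change was 1.30 ± 0.44 over the lines (adjusted p = 0.180) and 0.49 ± 0.26 in the full deletion (0.204). Without WT_2 b all 3 deletion samples lay above the remaining 2, and the log2 fold change was 0.89 ± 0.09 (adjusted p = 3.25e-07). Dazl, an RNA-binding protein of germ cells, Taf7l, a germ cell variant of a TFIID subunit, and Brdt, the testis bromodomain protein, were at 4.92 to 23.3, 1.19 to 3.76 and 0.80 to 4.01 CPM, with no call in edgeR with all samples. DESeq2 called Dazl over the lines and in the Hmga2 add-back (adjusted p = 0.0498 and 0.0273). Sohlh1, the partner of Sohlh2, had 2 counts in WT, 14 in the Hmga1 KO, 11 in the samples labelled Hmga1 add-back, 9 in the Hmga2 add-back, 9 in WT_2 and 10 in the full deletion. The scaled ratio of the KO to WT was 9.76 (95% exact interval 2.24 to 88.5), which covers counting error only.

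Of the other spermatogenic genes, Usp26 and Fmr1nb rose over the lines. Usp26 (Entrez 83563, chrX:49107136-49154410, minus strand, mm9), an X-linked deubiquitinase of the testis, had 44, 30 and 33 counts in WT (1.31, 2.20 and 1.29 CPM) and 558 and 138 in the Hmga1 KO (14.7 and 9.82 CPM). It was at 5.36 and 7.27 CPM in the samples labelled Hmga1 add-back and 7.42 and 9.62 in the Hmga2 add-back. All derived samples lay above WT, by 3.31 to 11.2 times within a batch. The log2 fold change was 2.91 ± 0.34 in the KO (adjusted p = 0.0329), 1.91 ± 0.34 and 2.34 ± 0.34 in the add-backs (0.0972 and 0.0508) and 2.39 ± 0.30 over the lines (0.0237, edgeR). WT_2, at 4.26 to 6.71 CPM, and the full deletion, at 3.67 to 5.09, overlapped (-0.19 ± 0.22, adjusted p = 0.556).

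Fmr1nb (Entrez 207854, chrX:66015014-66057742, plus strand, mm9), a cancer-testis antigen next to Fmr1, was at 7.22, 9.96 and 10.8 CPM in WT, 14.4 and 17.3 in the Hmga1 KO, 19.4 and 21.6 in the samples labelled Hmga1 add-back, and 21.7 and 24.1 in the Hmga2 add-back. The groups did not overlap WT. The log2 fold change was 0.91 ± 0.16 in the KO (adjusted p = 0.0746), 1.29 ± 0.16 in the samples labelled Hmga1 add-back (0.0504), 1.45 ± 0.16 in the Hmga2 add-back (0.0122) and 1.22 ± 0.14 over the lines (0.0157, edgeR). In WT_2 it was at 44.2, 67.6 and 44.5 CPM and in the full deletion at 29.7, 35.7 and 31.04, lower in every sample, but the log2 fold change of -0.67 ± 0.18 missed the threshold (adjusted p = 0.0560), and without WT_2 b it was -0.45 ± 0.08 (0.000245).

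Ldhc (Entrez 16833, chr7:54116573-54133512, plus strand, mm9), the lactate dehydrogenase of sperm, had 2, 0 and 2 counts in WT, 36 and 18 in the Hmga1 KO, 15 and 11 in the samples labelled Hmga1 add-back, and 28 and 12 in the Hmga2 add-back. Scaled to depth, the KO total was 18.8 times the WT total (95% exact interval 6.94 to 71.6), that of the samples labelled Hmga1 add-back 9.15 times (3.17 to 36.1) and that of the Hmga2 add-back 14.1 times (5.11 to 54.4). The intervals cover counting error only. The fitted p over the lines is not used as support, since Ldhc was tested only through the lines where it was high. WT_2 held 38, 22 and 38 counts and the full deletion 9, 17 and 12, a log2 fold change of -1.44 ± 0.28 (adjusted p = 0.0342), or -1.56 without WT_2 b (0.00113). Both of these groups averaged over 10 counts. Tex14, the intercellular bridge protein, was at 38.5 to 76.6 CPM with no call in edgeR, Slc25a31, the testis ADP/ATP carrier, at 0.07 to 3.74 CPM, likewise, and Tex101 had 14 counts in WT, 27 in the Hmga1 KO, 17 in WT_2 and 14 in the full deletion.

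**Figure D2:**
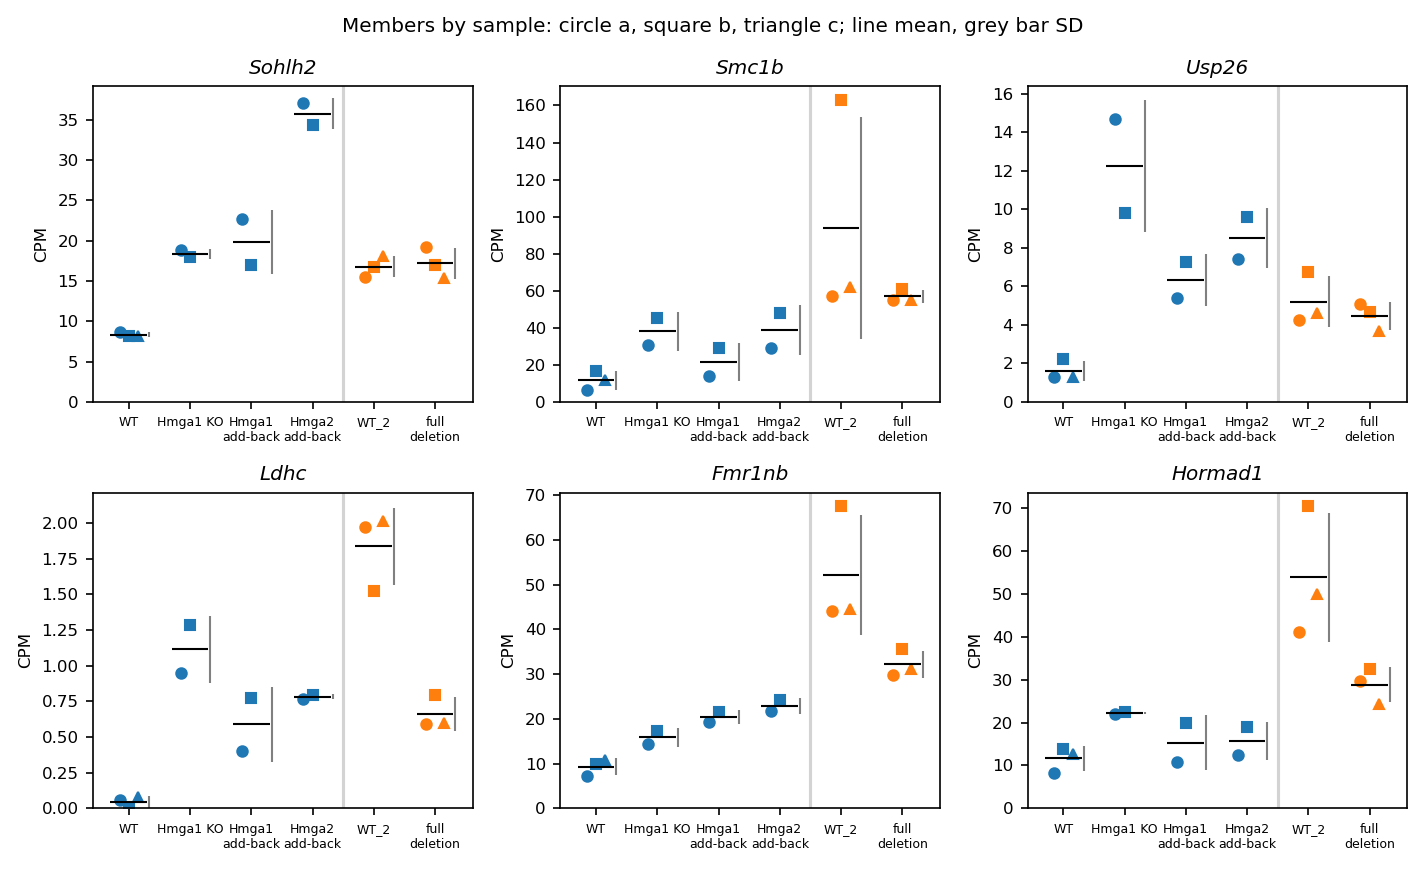
CPM of 6 members in each sample (points, shaped by letter) with the group mean (line) and SD (grey bar). Sohlh2 is at 8.15 to 8.68 CPM in WT and at 17.0 or more in all KO-derived samples, and all 6 members are higher in every WT_2 sample than in every WT sample.

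**Figure D3:**
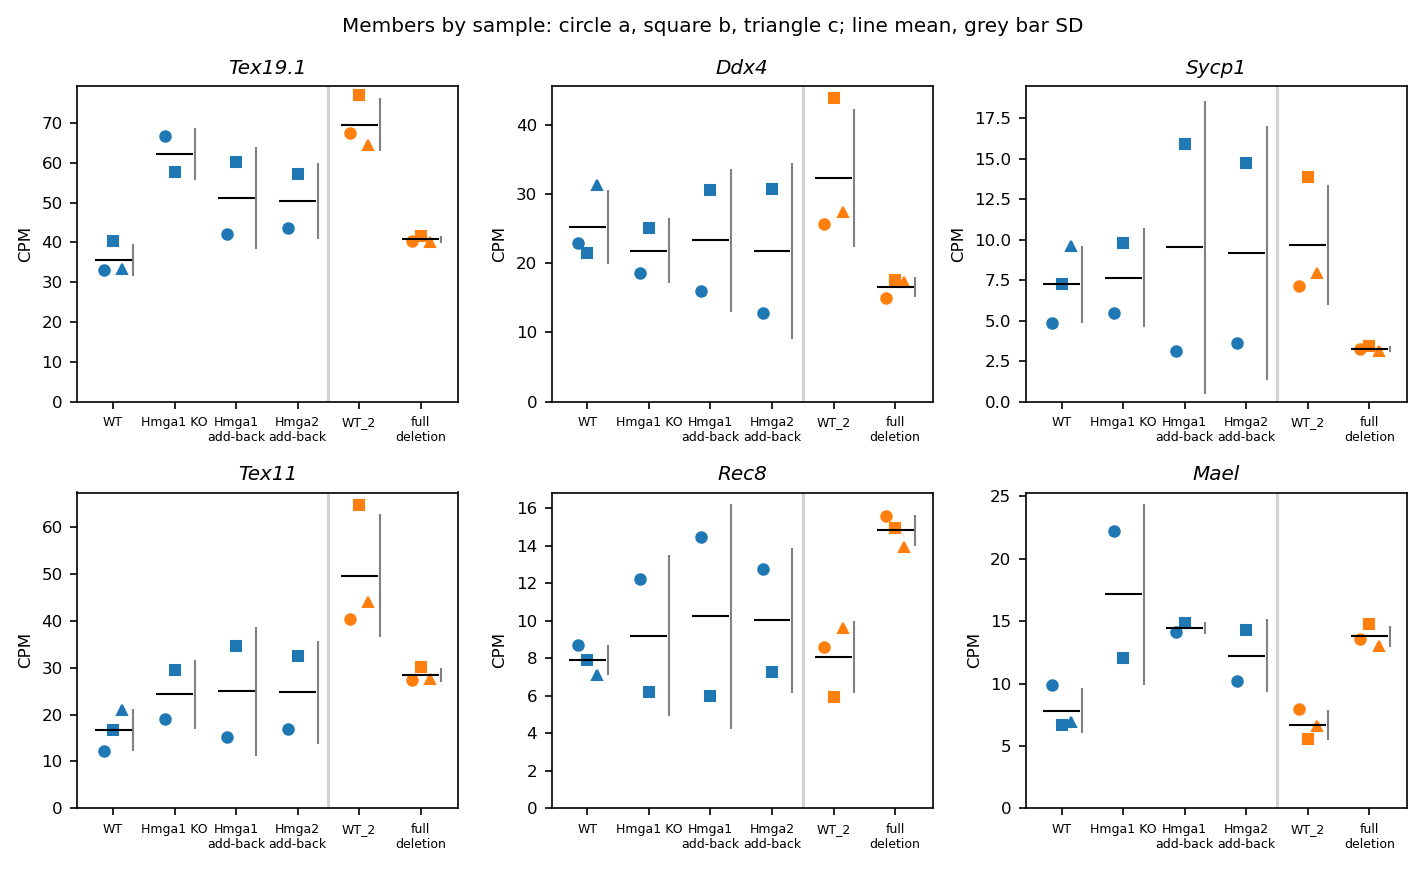
CPM of 6 members called in the full deletion, drawn in the same way. Tex19.1, Ddx4, Sycp1 and Tex11 are lower in the full deletion than in all WT_2 samples and Rec8 and Mael are higher, and WT_2 b stands apart for Ddx4, Sycp1 and Tex11.

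In edgeR, adding back either protein to the KO cells gave no call among the members. Against the KO, 0 of 31 passed either rule in the samples labelled Hmga1 add-back (edgeR; 0% of all genes did by either), and likewise 0 for the Hmga2 add-back (0.00719% of all by the stricter rule and 0.0144% by the looser). An unadjusted p under 0.05 was found for 6 members (19.4%, 1 higher and 5 lower) and for 5 (16.1%, 2 higher and 3 lower). Of all genes tested, 2.8% and 5.09% had one. DESeq2 called 1 member in each at an adjusted p under 0.05 (Smc1b lower, adjusted p = 0.0463, and Sohlh2 higher, 0.00225), and limma-trend called 0. Sohlh2 differed from the KO by 0.11 ± 0.15 on the log2 scale in the samples labelled Hmga1 add-back and by 0.97 ± 0.15 with Hmga2 added back (adjusted p = 0.253). Smc1b differed by -0.90 ± 0.19 and by 0.00 ± 0.19, and Usp26 by -1.01 ± 0.30 and -0.57 ± 0.29. The median over the members was -0.23 and -0.11, against 0.01 and 0.00 over all genes. With 2 samples a line, these comparisons do not show that a line equals the KO.

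Within the batches of the KO experiment, 18 of 31 members (58.1%) were above WT in all 6 pairs of a derived sample with the WT sample of its batch, against 12.7% of all genes tested, and 0 were below it in all 6, against 15.1% of all. These 18 were Smc1b, Stag3, Hormad1, Sycp3, Tex11, Tex15, Tex19.1, Mael, Mov10l1, Tdrkh, Fkbp6, Sohlh2, Stra8, Dazl, Tex14, Usp26, Fmr1nb and Ldhc. Ldhc was tested only through the lines where it was high, so its place among the 18 is no support. Each batch holds 1 WT sample, shared by 3 pairs, so the pairs are not independent. In the full-deletion experiment 12 members (38.7%) were below WT_2 in every sample, against 26% of all genes, and 3 (9.68%; Pld6, Rec8 and Mael) above, against 25.4%. Without WT_2 b, a choice made after seeing the data, 13 members were below (31.2% of all genes were) and 7 above (31% of all). Leaving out WT_2 b also raised the count of members called at an adjusted p under 0.05 from 8 to 17, of which 6 were higher and 11 lower, in a fit where 42.5% of all genes passed, while leaving out WT_2 c or any deletion sample lowered it to 0. Scaling by summed counts alone moved the all-gene median from 0.04 to 0.32 on the log2 scale and that of the members from -0.17 to 0.13, and left 2 calls, Sycp1 lower and Mael higher. The share of all called genes that were higher was then 81.9%, against 54.3% with TMM.

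For 4 members, Ldhc aside, the log2 fold change against the line's own wild type differed between the KO and the full deletion. In a joint fit, the log2 fold change of the KO against WT minus that of the full deletion against WT_2 passed an adjusted p of 0.05 for 5 of 31 members, all positive, against 0.293% of all 13671 genes positive and 0.0146% negative (edgeR). They were Ldhc (5.94 ± 0.72, adjusted p = 0.00621), whose value rests on 4 WT counts and ran from 4.73 to 9.26 over the alternatives, Usp26 (3.12 ± 0.43, 0.00996), Hormad1 (1.98 ± 0.33, 0.0315), Fmr1nb (1.59 ± 0.27, 0.0311) and Tex19.1 (1.55 ± 0.21, 0.00996). Ldhc averaged 1.33 counts in WT and passed the filter only through the other groups, so its call is no support, which leaves 4 members. The values of Smc1b (2.56 ± 0.53, adjusted p = 0.0771) and Sohlh2 (1.09 ± 0.20, 0.0535) did not pass. Mael, at 0.00 ± 0.38, was positive in both lines. Without WT a or without Hmga1 KO a none of these 4 passed, only Ldhc. Without WT_2 b 11 members passed, as did 4.87% of all genes, and leaving out any other sample gave 2 to 8. Of the 31 members, 16 (51.6%) were above WT on average in the KO-derived lines and below WT_2 in the full deletion, as were 18.4% of 13050 genes tested in both. Ldhc is among these 16, which is no support for the reason given. The experiments share no sample, but the KO and the full deletion differ in clone, in batch and in wild type as well as in the lesion, and these cannot be told apart.

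**Figure D4:**
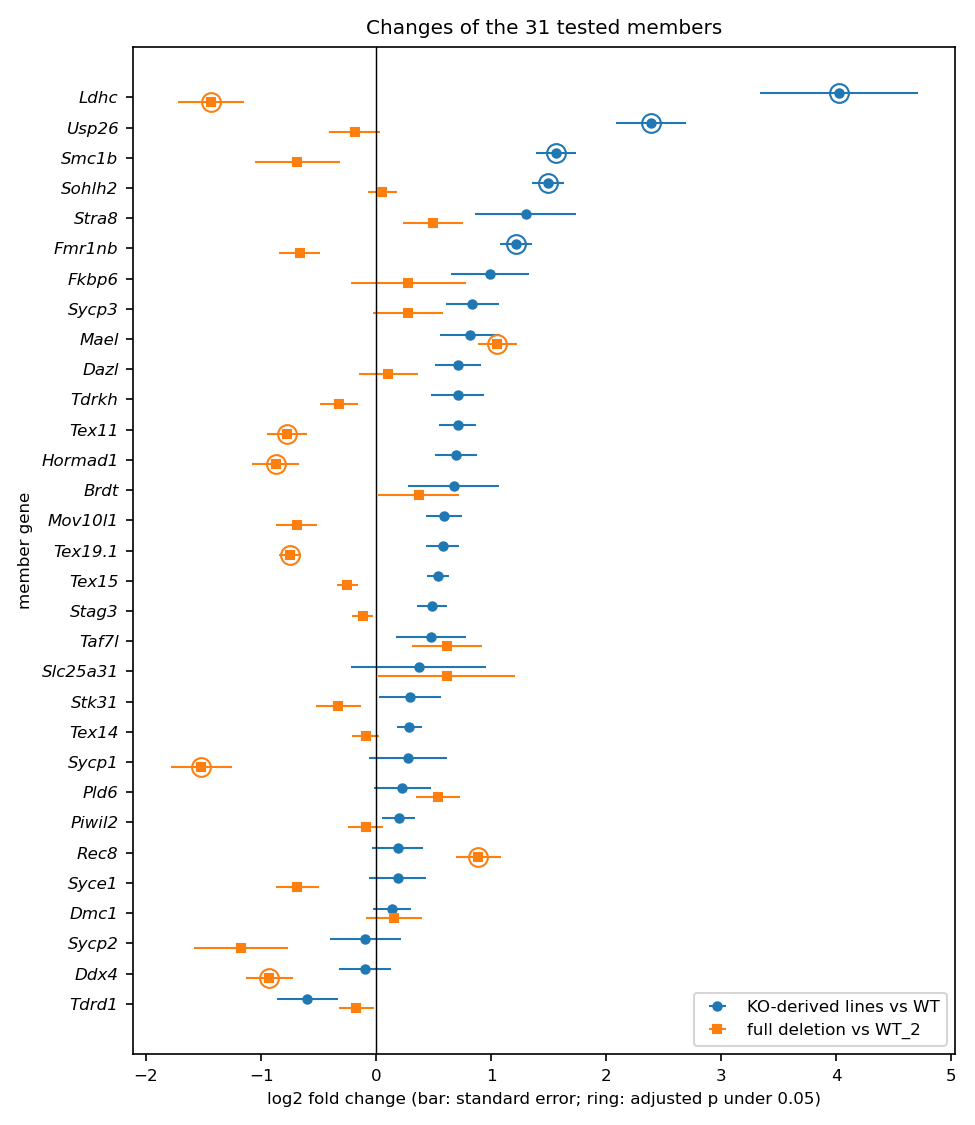
Log2 fold change with its standard error for the 31 tested members in the average of the KO-derived lines against WT (circles) and in the full deletion against WT_2 (squares), with rings at an adjusted p under 0.05. The circles lie right of 0 for 28 members, and the squares lie left of 0 for 19. Of all genes tested, 49.4% were positive in the former comparison and 53.4% in the latter.

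WT and WT_2 differed in these genes as well. Of the 31 members, 16 (51.6%) were higher in all 3 WT_2 samples than in all 3 WT samples, against 22.5% of all genes tested, and 0 were lower in all, against 25.3%. With WT_2 b left out, 18 were higher (26.5% of all genes were) and 0 lower (29.6% of all). Ldhc is in both counts of higher members, though it passed the filter only through groups other than WT. The ratio of mean CPM of WT_2 to WT was 8.04 for Smc1b (5.09 without WT_2 b), 5.58 for Fmr1nb (4.75), 4.63 for Hormad1 (3.91), 4.36 for Stra8 (3.26), 3.25 for Usp26 (2.77), 2.97 for Tex11 (2.52), 2.01 for Sohlh2 (2.02) and 1.95 for Tex19.1 (1.85). The total of Ldhc was 98 counts in WT_2 and 4 in WT, a scaled ratio of 33.9 (95% exact interval 12.8 to 127, counting error only). Fmr1nb in the full deletion, at 29.7 to 35.7 CPM, also lay above WT, at 7.22 to 10.8. WT and WT_2 were processed in separate experiments, so the cells and the experiment cannot be told apart and no test was made.

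**Figure D5:**
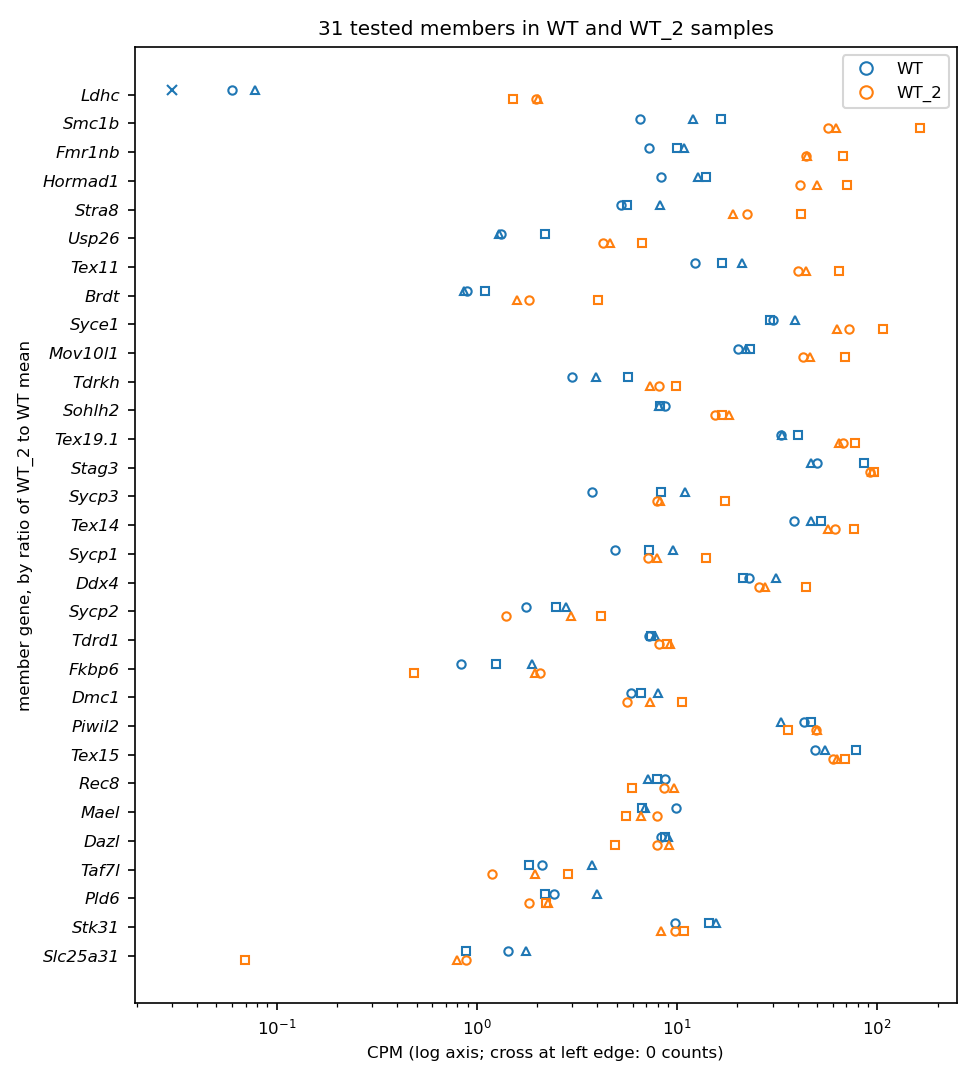
CPM (log axis) of the 31 tested members in the 3 WT and 3 WT_2 samples, shaped by letter, ordered by the ratio of WT_2 to WT. Ldhc, Smc1b, Fmr1nb and Hormad1 stand at the top with no overlap, and Piwil2, Tex15, Rec8 and Mael overlap.

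Few genes of related lists were called. Of 23 other meiosis genes, 18 were tested for the KO-derived lines and 0 were called over the lines in edgeR, with a median log2 fold change of 0.18. Of the 18, 5 (27.8%) had an unadjusted p under 0.05, all higher, against 19.5% of all genes. For the full deletion 17 were tested and 0 called. There, 4 higher and 5 lower genes (52.9%) had an unadjusted p under 0.05, against 37% of all genes (edgeR). Meioc, which keeps germ cells in meiotic prophase, rose in the Hmga2 add-back, from 36.7 to 43.3 CPM in WT to 69.5 and 81.2 (log2 fold change 0.95 ± 0.13, adjusted p = 0.0399). Of 15 tested among 18 other piRNA and germ granule genes, 0 were called in the KO-derived lines or in the full deletion (edgeR). An unadjusted p under 0.05 was found for 5 (33.3%) and 6 (40%), against 19.5% and 37% of all genes. Of 16 late spermatid and oocyte genes, 2 were tested for the KO-derived lines and 1 for the full deletion, with 0 called and 0 at an unadjusted p under 0.05 (edgeR). Among the 6 primordial germ cell specifiers, Dppa3, a maternal factor that guards methylation in the zygote, rose in the full deletion, from 4.64 to 6.10 CPM in WT_2 to 8.87 to 10.9 (0.96 ± 0.17, adjusted p = 0.0293), or 0.88 without WT_2 b (0.000181).

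The 17 known silencing factors of germline genes were all tested. Over the KO-derived lines all 17 log2 fold changes were negative (median -0.16, against 0.00 for all genes), 0 were called in edgeR and 4 (23.5%) had an unadjusted p under 0.05, against 19.5% of all genes. In the full deletion 15 were negative, and 2 (against 3.77% of all genes lower) fell: Dnmt3b, a de novo DNA methyltransferase, from 292 to 356 CPM in WT_2 to 186 to 201 (-0.68 ± 0.11, adjusted p = 0.0250), and Trim28, the KAP1 corepressor, from 2900 to 3575 CPM to 1957 to 2111 (-0.60 ± 0.14, adjusted p = 0.0468). Without WT_2 b these were -0.61 and -0.52 (1.19e-07 and 1.74e-07). Dnmt3b was at 211 to 238 CPM in WT and 99.7 to 218 in the KO-derived lines (-0.54 ± 0.16, adjusted p = 0.140). Whether these levels bear on the members was not tested.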

How the data were processed

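RNA was depleted of ribosomal RNA and strand-specific libraries were sequenced. Per the labels and the study's methods, the authors aligned reads to mm9 with bowtie (through QuasR), placed a read with several hits at 1 of them at random, and deposited raw counts of same-strand reads on the exons of UCSC known genes. The submitters' processing notes name bcl2fastq 2.17. Exon width per gene, also deposited, gave RPKM.

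The members and all gene lists were chosen with earlier results of these data known. edgeR 4.0.16 (R 4.3.3; TMM, quasi-likelihood) was run on genes averaging 10 or more counts in the samples fitted, and p-values were adjusted by Benjamini-Hochberg across them. The KO experiment was fitted with all 9 samples and the batch letter as a term, because the study used a batch term there. In that experiment a minus b in WT correlated with a minus b in the other lines (0.331 to 0.441 across genes). WT c alone carries the term for letter c, so beyond scaling and the filter it adds nothing to a fitted difference. The full-deletion experiment was fitted without a batch term (correlations of -0.0384 to 0.0608). Between-experiment differences were tested in a joint fit. CPM used 1 TMM scaling of all 15 samples. Members were detailed where called in any comparison or among the 5 highest by median RPKM, and at most 5 called genes of another list were named. Scripts were tested on simulated data. Alternatives used DESeq2 1.42.0 and limma 3.58.1, other scalings and filters, and left out each sample. Positions are from GENCODE vM1 (mm9), in which no member shares same-strand exons with another gene. Every count column was mapped to a sample. P-values measure the spread between these samples only.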

Additional observations from a re-analysis of the deposited data

Results flagged for a closer look

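For 4 members the log2 fold change against the line's own wild type differed between the KO and the full deletion. This was a test of the difference itself (edgeR, joint fit of 15 samples). Ldhc also passed, but it met the filter on low counts only through groups other than WT, so its call is no support. The difference in log2 fold change, KO minus full deletion, was 5.94 for Ldhc (4.73 to 9.26 over the alternatives, with 4 counts in WT in all), 3.12 for Usp26, 1.98 for Hormad1, 1.59 for Fmr1nb and 1.55 for Tex19.1. Ldhc was higher in 2 of 2 KO samples than in the WT of the same batch and lower in 3 of 3 deletion samples than in every WT_2 sample, and the same held for Hormad1, Fmr1nb and Tex19.1. For Usp26 the KO was higher in 2 of 2 samples, while the full deletion and WT_2 overlapped. Over 19 alternatives the call held in 17 for Usp26, 16 for Tex19.1, 9 for Fmr1nb and 8 for Hormad1. That of Ldhc held in 19, which is no support for the same reason. Without WT a none of the 4 passed. Mean CPM of Hormad1 was 11.65 in WT, 22.23 in the KO, 28.86 in the full deletion and 53.92 in WT_2. For Fmr1nb and Tex19.1 too, both lines lay between the wild types. For Usp26 the KO (12.24) lay above WT_2 (5.194). Clone, batch and wild type differ with the lesion and cannot be told apart.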

How the results depend on the processing

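Over 362 refits of the 23 gene-level results with a call, 250 kept the call, 112 lost it and 0 changed direction. Counts of members moved more, and the share of all genes called moved between fits as well. Where that share is not given beside a count, the count shows only its dependence on the processing and is no result about the members. At the strict rule, the counts of 0 in the KO, 0 in the samples labelled Hmga1 add-back, 1 in the Hmga2 add-back, 1 over the lines and 0 in the full deletion became 4, 3, 4, 4 and 3 with DESeq2; 2, 0, 3, 5 and 8 at an adjusted p under 0.05; and 2, 0, 4, 4 and 0 without the filter on low counts. With only the groups compared the Hmga2 add-back count was 4, and limma-trend gave 2 over the lines. Leaving out 1 sample gave 0 to 2 in the KO, 0 to 3 in the Hmga2 add-back, 0 to 4 over the lines and 0 to 2 in the full deletion.

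At an adjusted p under 0.05, the counts of 2, 0, 3, 5, 8 and, for the KO minus full-deletion difference, 5 became 9, 5, 7, 13, 12 and 11 with DESeq2, which called 1.43%, 1.44%, 2.39%, 3.82%, 24.7% and 2.41% of all genes. Without the low-count filter they were 6 in the KO, 3 in the samples labelled Hmga1 add-back and 8 for the difference. DESeq2 size factors or limma-trend gave 2 in the samples labelled Hmga1 add-back, the 2 groups alone gave 7 in the Hmga2 add-back, and summed counts gave 2 in the full deletion. Leaving out 1 sample gave 0 to 7, 0 to 7, 1 to 9, 0 to 9, 0 to 17 and 1 to 11. Of all genes, 42.5% passed in the full deletion without WT_2 b and 11.2% over the lines without WT b. Without the replicate block of batch letters, the strict count over the lines was 0 and the looser count 3; with a replicate block in the full deletion, where letters do not pair samples, it was 6. Causes were not tested. With DESeq2 size factors 50% of all genes called in the samples labelled Hmga1 add-back were higher, against 33.3% of 6. Having 2 samples a line and low counts (Ldhc, Sohlh1, Asz1, Spo11, Tex101) limits what could be detected. The alternatives for the looser counts and for the difference between the experiments were chosen after seeing the data.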
